A study of Homo sapiens with 12 samples.

Results

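The DLK1-DIO3 locus is an imprinted gene cluster on human chromosome 14. It is described here by 7 genes, DLK1, MEG3, RTL1, MEG8, MEG9, DIO3OS and DIO3, out of the 57820 genes counted in each library. The genes were chosen by their place in the locus and matched by symbol, and DIO3 was picked for its rise over control in both knockout lines, so its difference from control is given as a description with no test. All 7 symbols were found.

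In an imprinted locus, a gene is transcribed mainly from the chromosome inherited from one parent. Here the protein-coding genes DLK1, RTL1 and DIO3 are known to be transcribed from the paternal chromosome, and the long noncoding RNAs MEG3, MEG8 and MEG9, together with large clusters of small nucleolar RNAs and microRNAs, from the maternal one. DLK1 is a membrane protein related to the Notch ligands and a marker of fetal liver progenitors. DIO3 is the deiodinase that inactivates thyroid hormone. It is a selenoprotein that is abundant in placenta and fetal tissues, low in adult liver, and found again in some tumours. DIO3OS is a noncoding RNA transcribed from the strand opposite to DIO3.

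RNA was sequenced from PLC/PRF/5 cells, a human hepatoma line, in 3 groups of 4 libraries. KO_RES libraries came from cells in which HKDC1, a hexokinase domain protein, was knocked out and then put back, KO libraries from the knockout cells, and control libraries from cells labelled WT. KO_RES and KO each comprise 2 lines with 2 libraries per line, named by line and number, so that KO 2_1 is number 1 of line 2. The labels give no guide, clone, culture or oxygen level, so a p-value here measures only the spread between these libraries, which may be technical. For 4 libraries (KO_RES 1_1, KO_RES 2_1, KO 1_2 and KO 2_2) the genotype field and the title name different groups. The titles were used, and in the KO_RES and KO libraries the genotype field follows the number, number 2 being entered as rescue.

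Reads assigned to genes came to 36075411 to 60154638 per KO_RES library, 42609910 to 68040103 per KO library and 57333288 to 71853616 per control library. HKDC1 was at 1236, 1545, 506.4 and 626.1 CPM (reads brought to a common library size with TMM factors) in KO_RES 1_1, 1_2, 2_1 and 2_2, at 153.0, 146.6, 91.1 and 49.2 CPM in the KO libraries in the same order, and at 156.7, 154.3, 182.8 and 123.5 CPM in controls 1 to 4. The rescue titles are thus matched by high HKDC1 mRNA, while the mRNA of line KO1 lay within the control range and cannot check that label. The controls formed pairs that differed in albumin mRNA (ALB), which had 907.6 CPM in control 1 and 821.9 in control 2, but 23.0 in control 3 and 28.2 in control 4. The 14 hepatocyte and hepatoma markers all exceeded 1 CPM in each group. The RNA is from bulk cultures, in which a change in the number of cells that express a gene and a change in RNA per cell cannot be told apart.

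DIO3 and DIO3OS, the genes at the distal end of the locus, are transcribed away from each other, and their starts lie 1073 bases apart in RefSeq. The bases upstream of each start are shown because these genes were high in the same libraries, with MEG3 for comparison. They are from RefSeq promoter windows on GRCh38.p14, written in the direction of transcription, with 250 bases before the start. DIO3 is on the plus strand at chr14:101561245-101561494, DIO3OS on the minus strand at chr14:101560423-101560672, and MEG3 on the plus strand at chr14:100825858-100826107. Capitals mark matches on either strand to the core of a promoter box (TATAAA), to CCAAT and to the GC box (GGGCGG), and for MEG3 also to the cAMP response element (TGACGTCA).
DIO3: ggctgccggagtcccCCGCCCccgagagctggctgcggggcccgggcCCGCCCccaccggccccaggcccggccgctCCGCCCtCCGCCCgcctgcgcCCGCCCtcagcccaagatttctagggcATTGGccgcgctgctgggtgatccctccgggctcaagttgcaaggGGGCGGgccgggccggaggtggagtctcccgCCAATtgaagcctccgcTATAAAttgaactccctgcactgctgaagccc
DIO3OS: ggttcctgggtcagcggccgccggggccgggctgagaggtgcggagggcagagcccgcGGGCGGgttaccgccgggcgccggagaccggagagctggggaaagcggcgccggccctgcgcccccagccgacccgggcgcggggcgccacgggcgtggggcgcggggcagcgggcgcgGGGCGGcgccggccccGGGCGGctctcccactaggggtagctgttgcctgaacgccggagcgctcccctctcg
MEG3: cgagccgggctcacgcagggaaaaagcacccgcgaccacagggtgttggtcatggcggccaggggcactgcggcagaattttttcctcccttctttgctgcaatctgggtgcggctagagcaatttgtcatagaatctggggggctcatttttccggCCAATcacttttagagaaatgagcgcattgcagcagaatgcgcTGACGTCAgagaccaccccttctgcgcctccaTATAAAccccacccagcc

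The DIO3 window held a TATA box beginning 32 bases before the start, 2 CCAAT matches and 6 GC boxes. The DIO3OS window held 3 GC boxes and no match to TATAAA or CCAAT in these letters. Across the full 300 bases, which run to 50 bases past the start, DIO3OS had 46 CpG dinucleotides and a GC content of 81.7%, DIO3 had 28 and 73%, and MEG3 had 19 and 59%. Only 2.89% of 34796 RefSeq windows of this length held as many CpG dinucleotides as DIO3OS, against 26.2% for DIO3 and 42.9% for MEG3. TATAAA occurs in 11.6% of those windows, CCAAT in 34.6%, GGGCGG in 44.9% and TGACGTCA in 1.84%. The motifs do not overlap one another in the printed bases. A match describes the letters and does not show that a factor binds there. RefSeq windows were matched for 5 of the 7 genes.

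DIO3 was read in every KO_RES and KO library and was close to the detection floor in controls. It was at 1.85, 0.368, 11.1 and 1.33 CPM in KO_RES 1_1, 1_2, 2_1 and 2_2, from 95, 13, 594 and 90 reads. It was at 4.15, 1.12, 5.72 and 2.69 CPM in KO 1_1, 1_2, 2_1 and 2_2, from 260, 48, 312 and 198 reads. In controls 1 to 4 the level was 0.107, 0.0438, 0.101 and 0.0354 CPM, from 6, 3, 6 and 2 reads. Every KO_RES and KO library was thus above every control, with KO_RES 2_1 the highest of the 12 and KO_RES 1_2 the lowest of the 8 outside the controls. A count of 3 reads, taken as the floor, equals 0.0408 to 0.0849 CPM by library.

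The means of DIO3 were 3.66 ± 5.00 CPM in KO_RES, 3.42 ± 1.97 CPM in KO and 0.0720 ± 0.0376 CPM in control (SD, n = 4 each). The pooled reads numbered 792 in KO_RES, 818 in KO and 17 in control. Scaled to library size, KO_RES held 53.8 times and KO 49.5 times the control level, with exact intervals of 33.4 to 92.9 and 30.7 to 85.3 at 95% that cover counting error only. The fitted log2 fold change was 5.64 for KO_RES against control and 5.54 for KO against control. By line, it was 5.84 for KO2 against control and 5.18 for KO1 against control. These values are the ones that chose the gene, or share its controls, and carry no test. Without KO_RES 2_1, the value for KO_RES against control was 4.02.

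**Figure D1:**
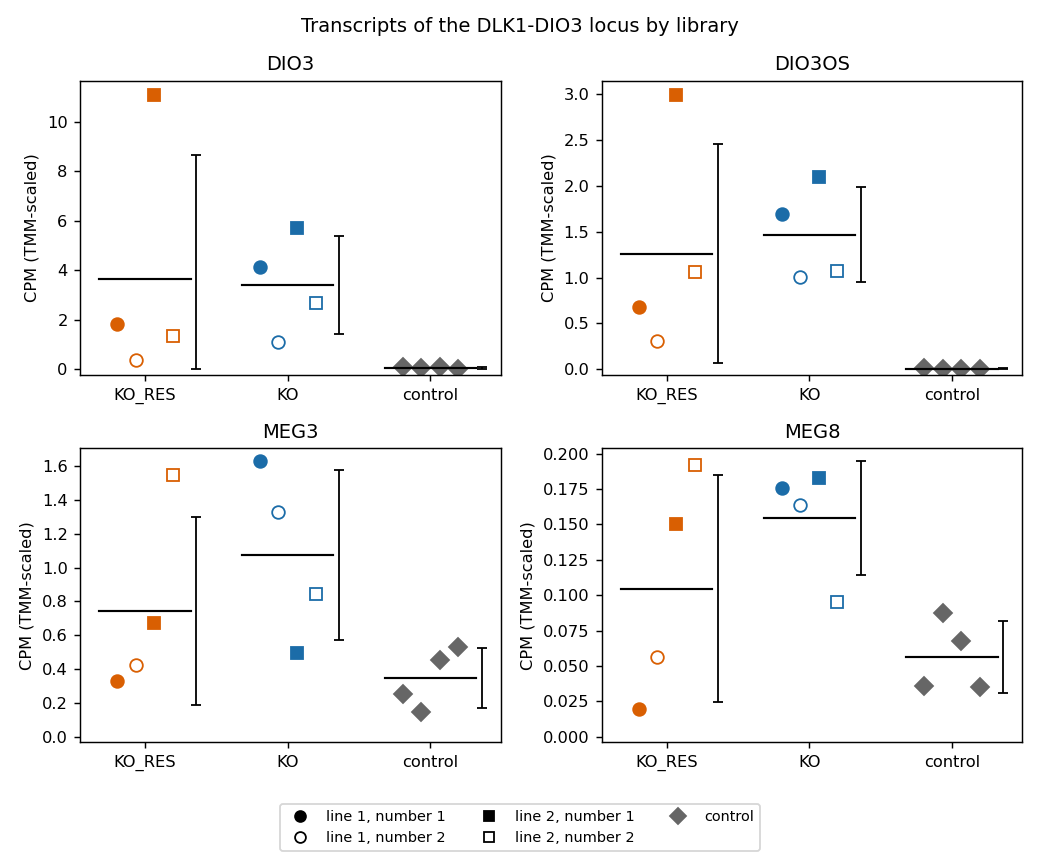
CPM per library of DIO3, DIO3OS, MEG3 and MEG8 in KO_RES, KO and control, each panel with its own axis from 0. Circles are line 1, squares line 2 and diamonds controls, open symbols are number 2, horizontal lines are means and bars are SD (n = 4, cut at 0); DIO3 and DIO3OS lie near 0 in all controls, and KO_RES 2_1 is the highest library for both, at 11.1 and 2.99 CPM.

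DIO3OS, the divergent noncoding partner, was detected in the same 8 libraries and had 1 read in all controls together. It was at 0.683, 0.311, 2.99 and 1.06 CPM in KO_RES 1_1, 1_2, 2_1 and 2_2, from 35, 11, 160 and 72 reads. It was at 1.69, 1.01, 2.09 and 1.07 CPM in KO 1_1, 1_2, 2_1 and 2_2, from 106, 43, 114 and 79 reads. Control 1 had 1 read, or 0.0179 CPM, and controls 2 to 4 had 0. No KO_RES or KO library overlapped a control, and the highest and lowest of the 8 were again KO_RES 2_1 and KO_RES 1_2. The share of all genes separated from controls in this way was not counted, so for every locus gene the separation is a description only.

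DIO3OS was higher in both groups than in control. Its mean was 1.26 ± 1.19 CPM in KO_RES, 1.47 ± 0.519 CPM in KO and 0.00448 ± 0.00896 CPM in control (SD, n = 4 each). For KO_RES against control the log2 fold change was 7.63 (SE 0.98, edgeR quasi-likelihood adjusted p = 0.00187), and for KO against control it was 7.84 (SE 0.98, adjusted p = 0.00159). With a control sum of 1 read, the fitted size depends on the small count added by the fit. As ratios of pooled reads scaled to library size, DIO3OS was 321.2 times the control level in KO_RES, with an interval of 57.2 to 12731, and 351.6 times in KO, with an interval of 62.7 to 13926. By line, the edgeR log2 fold change was 7.95 for KO2 against control (SE 0.81, adjusted p = 0.000313) and 7.73 for KO1 against control (SE 0.82, adjusted p = 0.000230). KO2 and KO1 did not differ detectably in DIO3OS (0.22, SE 0.60, edgeR adjusted p = 0.867). DIO3OS lies beside DIO3, which was picked for its rise over these same controls, so its tests against control are not independent of that choice. It also passed the filter on low counts through its KO_RES and KO libraries alone. Its adjusted p-values against control therefore describe the values and add no independent support.

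At an adjusted p under 0.05, edgeR called 6.28% of the 19200 genes tested for KO against control (2.87% higher and 3.41% lower), and 5.47% for KO_RES against control (2.18% higher and 3.29% lower). Of the 7 locus genes, 3 passed the filter on low counts in that fit: MEG3, DIO3 and DIO3OS. DIO3 is described only, and of the other 2 genes tested, DIO3OS was called in both comparisons and MEG3 in neither. DIO3 and DIO3OS passed the filter through their KO_RES and KO libraries alone, so the count over tested genes says little by itself. Both comparisons share the 4 control libraries. DIO3OS was called against control in 21 of 21 alternative settings for each comparison, with adjusted p up to 0.0279 for KO_RES and up to 0.0275 for KO. These settings reuse the same libraries. DIO3OS also varied with DIO3 over the 8 KO_RES and KO libraries (r = 0.94), so the tally adds no independent support. Without control 1, which held the 1 control read, the fitted DIO3OS values were 9.17 for KO_RES and 9.38 for KO. Without KO_RES 2_1 the KO_RES value was 6.76.

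MEG3, the maternal long noncoding RNA that begins the noncoding part of the locus, was read in every library. It was at 0.332, 0.424, 0.673 and 1.55 CPM in KO_RES 1_1, 1_2, 2_1 and 2_2, from 17, 15, 36 and 105 reads. It was at 1.63, 1.33, 0.495 and 0.843 CPM in KO 1_1, 1_2, 2_1 and 2_2, from 102, 57, 27 and 62 reads. Controls 1 to 4 had 0.251, 0.146, 0.456 and 0.531 CPM, from 14, 10, 27 and 30 reads. The groups overlapped: both KO1 libraries, KO 2_2, KO_RES 2_1 and KO_RES 2_2 were above all controls, and the other 3 KO_RES and KO libraries lay within the control range. Controls 3 and 4, which had little ALB, were the higher pair for MEG3.

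MEG3 averaged 0.745 ± 0.557 CPM in KO_RES, 1.07 ± 0.504 CPM in KO and 0.346 ± 0.178 CPM in control (SD, n = 4 each). The log2 fold change was 1.12 for KO_RES against control (SE 0.57, edgeR adjusted p = 0.286) and 1.63 for KO against control (SE 0.57, edgeR adjusted p = 0.115). Without KO_RES 2_2 the value for KO_RES against control was 0.47 (edgeR adjusted p = 0.622). The value for KO followed the split of the controls. It was 1.12 against controls 3 and 4 only (edgeR adjusted p = 0.482) and 2.43 against controls 1 and 2 only (adjusted p = 0.0860). For KO against control MEG3 passed the threshold in 2 of 21 alternatives, with DESeq2 (1.64, adjusted p = 0.0441) and when the lines were averaged in a fit of 5 groups (1.53, edgeR adjusted p = 0.0326). In that fit, where 10% of 20559 genes were called for KO2 against control and 18.1% for KO1 against control, MEG3 rose in KO1 (2.10, SE 0.48, edgeR adjusted p = 0.0131). In KO2 its value was 0.96 (SE 0.50, edgeR adjusted p = 0.267). The fit of 5 groups was not repeated with either pair of controls alone. The difference between the lines, KO2 minus KO1, was -1.14 and did not pass (SE 0.57, edgeR adjusted p = 0.239), in a comparison that called 12% of genes, so the lines are not shown to differ.

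MEG8, a maternal noncoding RNA that hosts small nucleolar RNAs, was near the floor. It had 1, 2, 8 and 13 reads in KO_RES 1_1, 1_2, 2_1 and 2_2, 11, 7, 10 and 7 reads in the KO libraries in the same order, and 2, 6, 4 and 2 reads in controls 1 to 4. All KO libraries were above all controls in CPM (0.0951 to 0.183 in KO against 0.0354 to 0.0876 in control), while KO_RES 1_1 was below them and KO_RES 1_2 among them. The pooled reads scaled to library size were 1.98 times the control level in KO_RES, with a counting interval of 0.984 to 4.14, and 2.57 times in KO, with an interval of 1.35 to 5.17. MEG8 was below the filter in the fit of 3 groups. In the fit of 5 groups its log2 fold change was 1.22 for KO2 against control (SE 0.54, edgeR adjusted p = 0.192) and 1.52 for KO1 against control (SE 0.53, edgeR adjusted p = 0.0743).

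DLK1, RTL1 and MEG9 were at or near the floor. DLK1, the gene that opens the locus, had 2, 6 and 1 reads in KO_RES 1_1, 1_2 and 2_1, 1 read in KO 2_2, 1 read in control 4 and 0 elsewhere, so only KO_RES 1_2, at 0.170 CPM, exceeded 3 reads. RTL1, a retrotransposon-derived protein needed for the placenta in mice, had 0 reads in all KO_RES libraries, 2 in KO 1_1 and 1 in control 4. MEG9, a noncoding RNA further along the maternal cluster, had 4 reads in KO_RES 2_2, 1 in KO 1_1, and 1 and 2 in controls 1 and 4. Pooled and scaled to library size, the 9 DLK1 reads in KO_RES were 10.4 times the 1 in control, with a counting interval of 1.44 to 455.7 that leaves out the spread between libraries, and 6 of the 9 were in KO_RES 1_2. In KO, DLK1 had 1 read, a ratio of 1.03 with an interval of 0.0131 to 80.7. No difference between groups was detectable for RTL1 and MEG9 at this depth. Without the filter on low counts, where 38800 genes were tested, neither they nor MEG8 were called by edgeR in any of the 3 comparisons (DLK1 for KO_RES against control, adjusted p = 0.347).

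**Figure D2:**
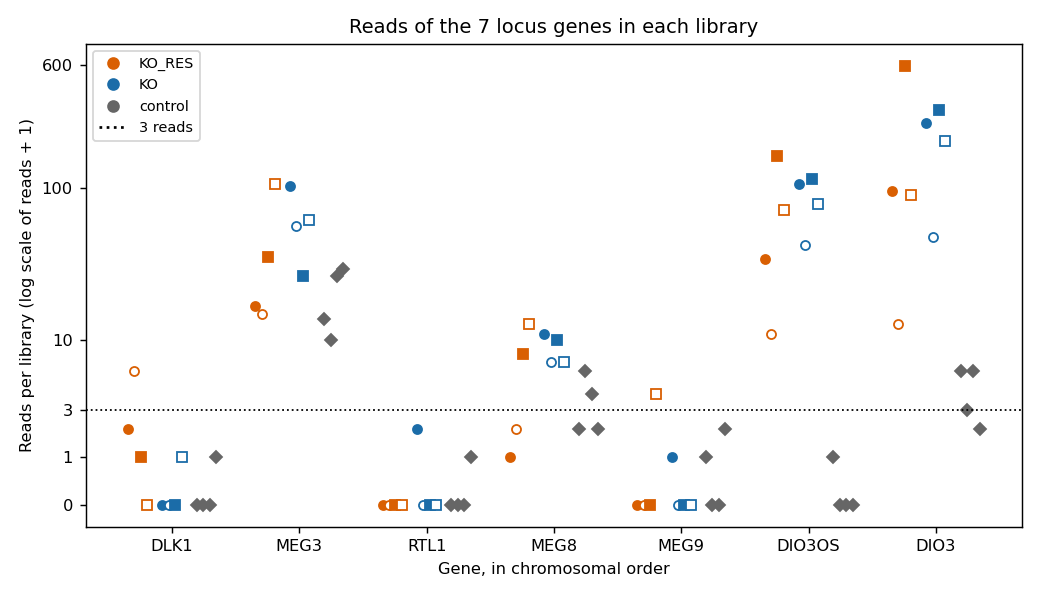
Reads per library, on a log scale of reads + 1, for the 7 genes in chromosomal order, with KO_RES, KO and control side by side, circles for line 1, squares for line 2, diamonds for controls and open symbols for number 2. Only MEG3, MEG8, DIO3OS and DIO3 stand above the dotted line at 3 reads in every KO library.

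The rest of the locus gave few reads. GENCODE release 29 lists 109 features from DLK1 to DIO3, of which 102 are not among the 7 genes, and 4 of these 102 had more than 3 reads in any library. MIR493HG, a microRNA host gene, had 2, 1, 6 and 1 reads in KO_RES 1_1, 1_2, 2_1 and 2_2, 10, 5, 3 and 12 in the KO libraries in the same order, and 3, 0, 3 and 0 in controls 1 to 4. MIR381HG had 0 reads in KO_RES, 7 in KO and 0 in control over all libraries, with at most 4 in any of them. The 46 microRNA genes had at most 3 reads in a library and the 45 small nucleolar RNA genes at most 5. An mRNA library does not capture mature microRNAs, and reads that overlap a host gene as well are left uncounted, so these values do not measure the small RNAs.

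KO_RES and KO were not shown to differ in any locus gene. DIO3 had a log2 fold change of 0.10 for KO_RES against KO (SE 0.82, edgeR adjusted p = 1), DIO3OS -0.21 (SE 0.59, adjusted p = 1) and MEG3 -0.51 (SE 0.55, adjusted p = 1). In this comparison edgeR called 0 of 19200 genes, with 473 at an unadjusted p under 0.05, and DESeq2 called 6. The sign for DIO3 was not stable. Without KO_RES 2_1 the DIO3 value was -1.52 (edgeR adjusted p = 1), and that of DIO3OS -1.08 (adjusted p = 1). Without KO 1_2 the DIO3 value was -0.19. For MEG3 the value without KO_RES 2_2 was -1.15 (edgeR adjusted p = 0.999). Within matched pairs of line and number, DIO3 in KO_RES was 0.447, 0.328 and 0.494 times the level in KO for pairs 1_1, 1_2 and 2_2, and 1.94 times for pair 2_1. With the pair as a block, which called 0.0437% of 18293 genes, DIO3 had -0.57 (SE 0.40, edgeR adjusted p = 0.572) and DIO3OS -0.47 (SE 0.37, adjusted p = 0.613).

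Within lines, the values of KO_RES against KO had opposite signs. For line 1, KO1_RES against KO1, the log2 fold changes were -1.23 for DIO3, -1.42 for DIO3OS, -1.97 for MEG3 and -2.19 for MEG8, with edgeR adjusted p between 0.422 and 0.976. For line 2, KO2_RES against KO2, they were 0.56, 0.36, 0.72 and 0.32 in the same order of genes, each with an edgeR adjusted p of 1. Of these genes, MEG3 alone was higher in KO_RES than in KO in both pairs of line 2. In pair 2_1 KO_RES held 1.94 times the KO level of DIO3, 1.43 times that of DIO3OS and 0.815 times that of MEG8. In pair 2_2 the values were 0.494, 0.991 and 2.02 in the same order. Of 20559 genes, 0.195% were called in line 1 and 0.00486% in line 2, none of them in the locus. The difference itself, line 2 minus line 1, was a test added after these values were seen. It was 1.79 for DIO3 (SE 1.36), 1.77 for DIO3OS (SE 0.87), 2.70 for MEG3 (SE 0.83) and 2.51 for MEG8 (SE 0.94). All had an edgeR adjusted p of 1, and unadjusted p of 0.215, 0.0681, 0.00802 and 0.0224 in that order, in a test that called 0 of 20559 genes, with 598 at an unadjusted p under 0.05.

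The rescue libraries of line 2 had higher means than those of line 1 for these 4 genes, without passing the threshold. Mean DIO3 was 6.22 CPM in KO2_RES and 1.11 CPM in KO1_RES, and mean DIO3OS 2.03 CPM in KO2_RES and 0.497 CPM in KO1_RES (n = 2 each, no error given). The DIO3 mean of KO2_RES rests on KO_RES 2_1, since KO_RES 2_2, at 1.33 CPM, was below KO_RES 1_1, at 1.85 CPM. The log2 fold change for KO2_RES against KO1_RES was 2.45 for DIO3 (SE 1.01, edgeR adjusted p = 0.138) and 1.99 for DIO3OS (SE 0.64, adjusted p = 0.0645). It was 1.56 for MEG3 (SE 0.60, edgeR adjusted p = 0.116) and 2.20 for MEG8 (SE 0.73, adjusted p = 0.0716). In this comparison 14% of genes were called. HKDC1 was lower in the rescue of line 2 than in that of line 1, and over the 8 KO_RES and KO libraries DIO3 and HKDC1 had r = -0.44 (rho = -0.45, a description with n = 8).

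DIO3 and DIO3OS were lower in number 2 than in number 1 of every line and group. DIO3 in number 2 was 0.198 times its level in number 1 in KO_RES line 1, 0.12 times in KO_RES line 2, 0.271 times in KO line 1 and 0.470 times in KO line 2. DIO3OS in number 2 was 0.456, 0.356, 0.595 and 0.513 times its level in number 1 in the same order. For both genes this holds in 4 of 4 pairs of libraries. The share of all genes lower in number 2 in all 4 pairs was not counted, so this is a description only.

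A comparison of number 2 with number 1, with line and group as a block, was added after these values were seen. It gave a log2 fold change of -2.06 for DIO3 (SE 0.28, edgeR adjusted p = 0.00165) and -1.10 for DIO3OS (SE 0.22, adjusted p = 0.00825), and 0.49 for MEG3 (SE 0.29, adjusted p = 0.249). It called 20% of 19766 genes, 10.2% lower, so a difference by number was common among genes. The labels do not say what the number stands for. Since the genotype field follows the number, this is also the comparison of rescue with knockout by that field. Grouped that way in the fit of 3 groups, DIO3 had -2.04 (edgeR adjusted p = 0.180), and HKDC1 was high by title and not by field.

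**Figure D3:**
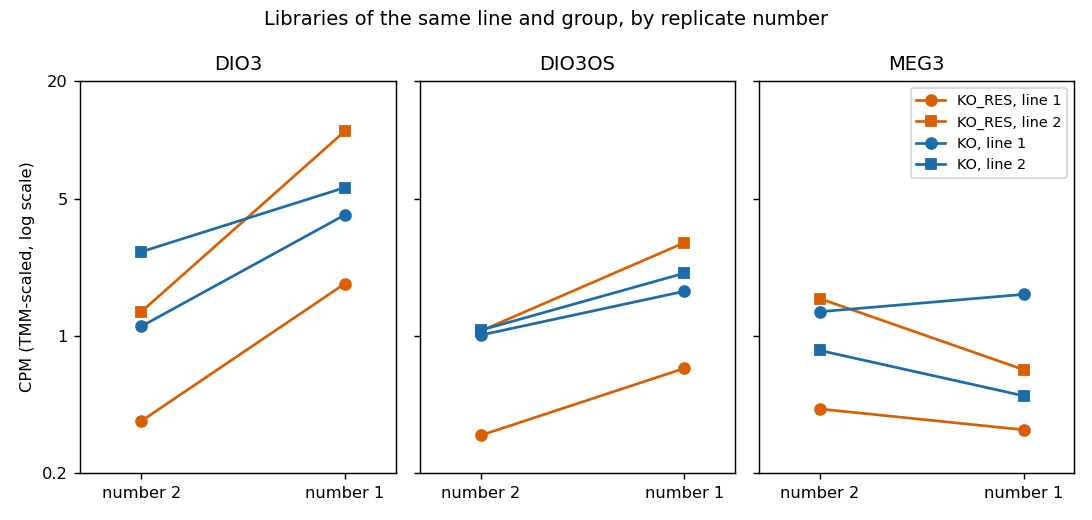
CPM on a log scale for number 2 and number 1 libraries of the same line and group, joined by lines (orange KO_RES, blue KO, circles line 1, squares line 2). All 4 lines are lower at number 2 for DIO3 and DIO3OS, while MEG3 is lower at number 2 in KO line 1 alone.

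DIO3 and DIO3OS varied together over the 8 KO_RES and KO libraries, with r = 0.94 (rho = 0.93, n = 8, log2 CPM), and these libraries share lines and numbers. DIO3 and MEG3 had r = 0.06 (rho = 0.07) and DIO3OS and MEG3 r = 0.32 (rho = 0.33) over the same libraries. The balance within the divergent pair still differed between libraries. DIO3OS held 26.9%, 45.8%, 21.2% and 44.4% of the reads of both genes in KO_RES 1_1, 1_2, 2_1 and 2_2, and 29%, 47.3%, 26.8% and 28.5% in KO 1_1, 1_2, 2_1 and 2_2. The exact 95% intervals ran from 36.6% to 52.4% in KO_RES 2_2 and from 18.4% to 24.3% in KO_RES 2_1, but from 23.3% to 34.2% in KO 2_2 and from 22.6% to 31.2% in KO 2_1. The shares are of reads and are not corrected for gene length.

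In number 2 the DIO3OS share averaged 41.5%, and in number 1 it averaged 26.0%. The difference was 15.5 ± 9.45 percentage points (SD, n = 4 pairs), higher in 4 of 4 pairs, with a smallest difference of 1.76 points in KO line 2. An exact two-sided sign-flip permutation test gave p = 0.125, the smallest value that 4 pairs allow. With all 4 pairs in the same direction it could give no other value, so the test cannot decide the question. The opposite-strand column held at most 1 read for either gene in any library, so in these stranded counts the reads of the pair are kept apart.

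**Figure D4:**
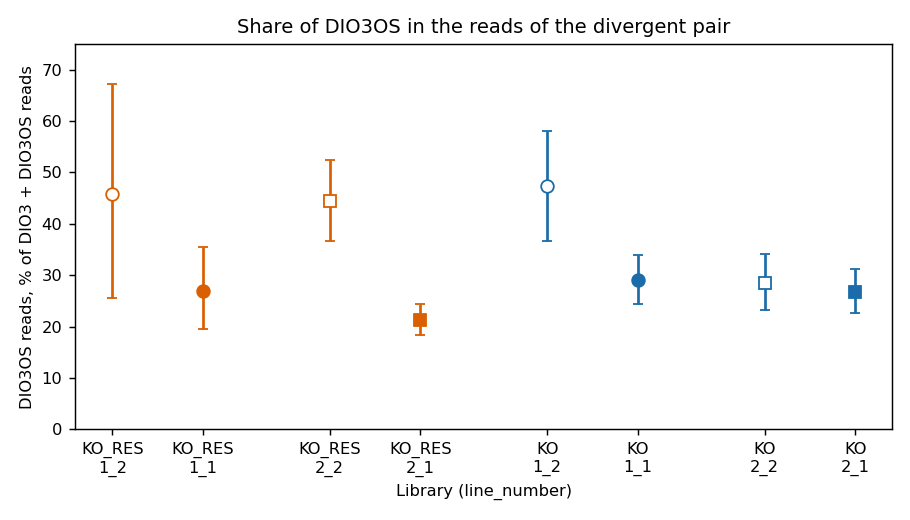
DIO3OS reads as a percentage of DIO3 plus DIO3OS reads in each KO_RES (orange) and KO (blue) library, with exact 95% intervals for counting error, circles for line 1, squares for line 2 and open symbols for number 2. The number 2 libraries reach 44.4% to 47.3% except KO 2_2, at 28.5%.

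Among the locus genes only DIO3 had the mean of at least 1 CPM needed to look for genes with a like pattern. Over the 12 libraries and 13275 genes, the genes with the highest correlation of log2 CPM to DIO3 were ELOA (r = 0.97), UBXN11 (0.96), C1orf122 (0.96), ZNF593 (0.96) and ZNF600 (0.95). The first 4 lie on chromosome 1 and ZNF600 on chromosome 19. The share of the 13275 genes on each chromosome was not counted, so these places are a description only. ELOA, an elongin subunit, averaged 133.1 CPM in KO_RES, 143.0 CPM in KO and 84.9 CPM in control. The correlation includes the difference from control for which DIO3 was picked.

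Of 20 flanking genes of chromosome 14q32, 19 were tested, and for KO against control 1 rose and 0 fell, near the 6.28% of all genes called, with a median log2 fold change of 0.05 against 0.01 for all genes. For KO_RES against control 0 rose and 0 fell, with a median of 0.04 against 0.02. MOK, a protein kinase gene on the distal side, averaged 5.22 ± 0.489 CPM in KO_RES, 5.61 ± 0.763 CPM in KO and 3.68 ± 0.362 CPM in control. In KO against control it had a log2 fold change of 0.61 (SE 0.16, edgeR adjusted p = 0.0470), and the call was lost in 16 of 21 alternatives. BEGAIN, the last gene tested before DLK1, had 0.56 for KO_RES against control (edgeR adjusted p = 0.691) and 1.26 for KO against control (adjusted p = 0.300). PPP2R5C, the first gene tested beyond DIO3, had 0.13 in both comparisons (edgeR adjusted p = 0.601 and 0.579).

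**Figure D5:**
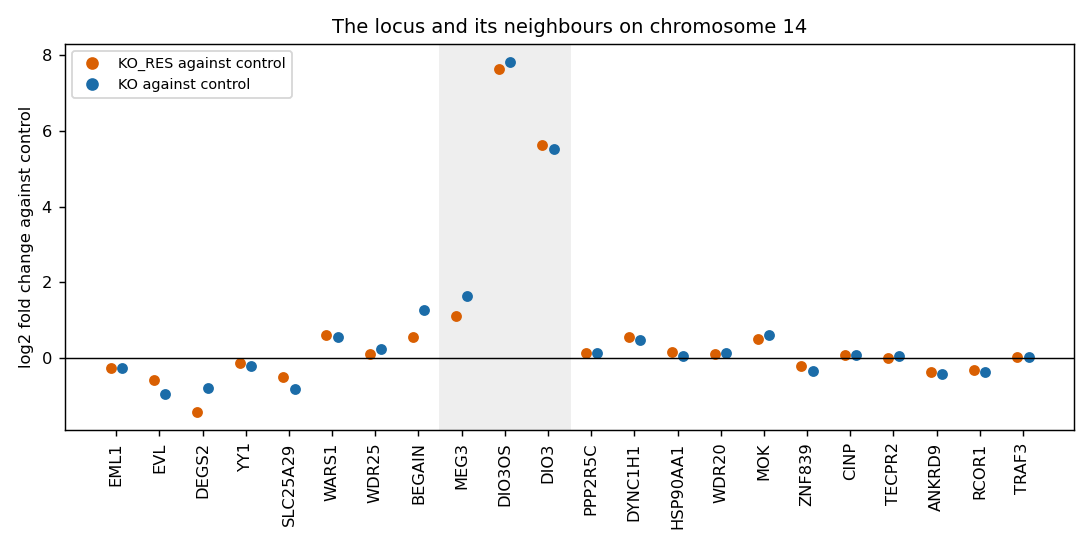
Log2 fold change for KO_RES (orange) and KO (blue) against control of the 19 flanking genes tested, in chromosomal order, with MEG3, DIO3OS and DIO3 in the shaded band; errors are not drawn, and DIO3 carries no test. DIO3OS and DIO3 lie at 7.63 and 5.64 for KO_RES and at 7.84 and 5.54 for KO, and MOK, at 0.61 for KO, is the only flanking gene called.

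Of 29 imprinted genes tested elsewhere in the genome, 1 rose and 3 fell for KO against control, where 2.87% of all genes rose and 3.41% fell, with a median log2 fold change of -0.06 against 0.01 for all genes. For KO_RES against control 0 rose and 3 fell, where 2.18% of all genes rose and 3.29% fell, with a median of -0.08 against 0.02. The gene that rose was MKRN3, a paternally expressed gene of chromosome 15 (0.80, SE 0.19, edgeR adjusted p = 0.0284), and its call was lost in 9 of 21 alternatives. PEG10, a retrotransposon-derived gene, fell for KO against control (-0.82, SE 0.20, edgeR adjusted p = 0.0343), a call lost in 7 of 21. It also fell for KO_RES against control (-0.81, SE 0.20, edgeR adjusted p = 0.0378), a call lost in 9 of 21. ERAP2 fell for KO_RES against control (-0.91, SE 0.15, edgeR adjusted p = 0.00659) and for KO against control (-0.85, SE 0.15, adjusted p = 0.00801). Each ERAP2 call was lost in 2 of 21 alternatives. TFPI2, a protease inhibitor imprinted in placenta, averaged 0.479 ± 0.438 CPM in KO_RES, 0.814 ± 0.473 CPM in KO and 31.8 ± 4.0 CPM in control. Its log2 fold change was -6.03 for KO_RES against control (SE 0.63, edgeR adjusted p = 0.000489) and -5.27 for KO against control (SE 0.60, adjusted p = 0.000946). H19, a maternal noncoding RNA of chromosome 11, had 1.30 for KO_RES against control (edgeR adjusted p = 0.0547) and 0.98 for KO against control (adjusted p = 0.125). Of 16 genes of imprint maintenance and DNA methylation, among them DNMT1, TRIM28 and ZNF445, 0 rose and 0 fell in either comparison. DNMT1, the maintenance methyltransferase, had a log2 fold change of 0.09 for KO_RES against control (edgeR adjusted p = 0.808) and 0.04 for KO against control (adjusted p = 0.915).

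The other genes of thyroid hormone activation, transport and reception did not include a gene that rose. Of 18 tested, 0 rose and 2 fell for KO against control, and 0 rose and 1 fell for KO_RES against control, beside the 3.41% and 3.29% of all genes that fell. Those that fell for KO were the carriers TTR (-5.14, SE 1.27, edgeR adjusted p = 0.0353) and ALB (-4.32, SE 1.07, edgeR adjusted p = 0.0353). Both follow the split of the controls, and neither was called for KO against controls 3 and 4 only. DIO1, the hepatic deiodinase that can activate thyroid hormone, averaged 1.24 ± 1.31 CPM in KO_RES, 1.14 ± 0.807 CPM in KO and 3.80 ± 1.27 CPM in control (KO against control -1.73, edgeR adjusted p = 0.247). DIO2, the activating deiodinase, averaged 7.58 ± 2.92 CPM in KO_RES, 13.4 ± 5.80 CPM in KO and 13.3 ± 14 CPM in control (KO against control 0.01, edgeR adjusted p = 0.998). THRB, the main hepatic receptor, had 0.72 for KO against control (edgeR adjusted p = 0.141).

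Of 13 thyroid hormone responsive genes tested, 0 rose and 1 fell for KO against control, and 0 rose and 1 fell for KO_RES against control, beside the same shares of all genes. That gene was ANGPTL4, a lipoprotein lipase inhibitor, with -1.50 for KO_RES against control (SE 0.24, edgeR adjusted p = 0.00649) and -0.92 for KO against control (SE 0.24, adjusted p = 0.0447). The KO call for ANGPTL4 was lost in 11 of 21 alternatives.

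DIO3 is itself a selenoprotein. Of 27 other genes for selenoproteins and their synthesis, 0 rose and 6 fell for KO against control, where 3.41% of all genes fell, with a median of -0.18 against 0.01 for all genes. For KO_RES against control 0 rose and 4 fell, where 3.29% of all genes fell, with a median of -0.17 against 0.02. GPX3, the secreted glutathione peroxidase, averaged 6.15 ± 2.14 CPM in KO_RES, 9.49 ± 1.29 CPM in KO and 46.1 ± 24.0 CPM in control (KO against control -2.28, SE 0.37, edgeR adjusted p = 0.00516). SEPSECS, which makes the selenocysteine carried by its tRNA, averaged 24.1 ± 6.58 CPM in KO_RES, 18.7 ± 4.17 CPM in KO and 39.4 ± 4.41 CPM in control (KO against control -1.08, SE 0.20, edgeR adjusted p = 0.0111). The SEPSECS call was lost against controls 3 and 4 only, and the GPX3 call in the 8 libraries whose labels agree. The GPX3 value for KO against control follows the split of the controls, at -1.42 against controls 3 and 4 only and -2.82 against controls 1 and 2 only. SELENOW fell for KO against control (-0.86, SE 0.15, edgeR adjusted p = 0.00752), a call lost in 2 of 21 alternatives. For KO_RES against control it had -0.66 (SE 0.15, edgeR adjusted p = 0.0252), a call lost in 10 of 21. SELENOF, a selenoprotein of the endoplasmic reticulum, fell for KO against control (-0.46, SE 0.11, edgeR adjusted p = 0.0290), a call lost in 10 of 21 alternatives.

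Among 23 Notch receptors, ligands and targets, the pathway that DLK1 is known to modulate, 1 rose and 2 fell for KO against control, where 6.28% of all genes were called, and 1 rose and 2 fell for KO_RES against control, where 5.47% were. LFNG, a glycosyltransferase that modifies Notch, fell in both comparisons, with -1.14 for KO_RES against control (SE 0.24, edgeR adjusted p = 0.0188) and -1.36 for KO against control (SE 0.24, adjusted p = 0.00793). Its KO_RES call was lost in 5 of 21 alternatives. The other calls were less stable. For KO against control HEY2, a Notch target, rose (1.80, edgeR adjusted p = 0.0338) and RBPJ, the DNA-binding factor of the pathway, fell (-0.52, adjusted p = 0.0395), and these calls were lost in 10 and 12 of 21 alternatives. For KO_RES against control MAML1, a coactivator, rose (0.42, edgeR adjusted p = 0.0369) and ADAM10, a receptor protease, fell (-0.48, adjusted p = 0.0262), and these were lost in 15 and 8 of 21. For KO_RES against KO, 0 genes of any of these lists were called by edgeR, and the 3 locus genes tested were not either.

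Fibroblast and endothelial markers stayed low, while LYZ among the blood cell markers and some neuroendocrine markers did not. The 9 fibroblast markers summed to 5.02 to 12.1 CPM in KO_RES, 6.70 to 13.4 CPM in KO and 7.07 to 12.1 CPM in control, and 1 of 6 tested rose for KO against control. It was THY1 (2.57, SE 0.39, edgeR adjusted p = 0.00412), at 0.493 ± 0.169 CPM in KO_RES, 1.13 ± 0.410 CPM in KO and 0.189 ± 0.0593 CPM in control, and was not called against controls 3 and 4 only. The 4 endothelial markers found summed to 0.311 to 1.08 CPM in KO_RES, 0.385 to 0.802 CPM in KO and 0.388 to 2.01 CPM in control. Of 7 blood cell markers, LYZ alone exceeded 1 CPM, at 268.4 to 920.5 CPM over the 12 libraries. PTPRC and HBB, defining markers of leukocytes and red cells, were at or below 0.0896 CPM in every library. The 6 neuroendocrine markers summed to 33.3 to 33.5 CPM in KO_RES, 26.9 to 34.3 CPM in KO and 31.4 to 34.7 CPM in control. Of the 5 tested, SYP, which encodes the vesicle protein synaptophysin, rose for KO_RES against control (0.59, SE 0.11, edgeR adjusted p = 0.00994). It averaged 26.5 ± 2.6 CPM in KO_RES, 22.6 ± 1.57 CPM in KO and 17.6 ± 1.29 CPM in control, and the call was lost in 2 of 21 alternatives. CHGB of the same list went the other way without passing the threshold (KO_RES against control -3.27, edgeR adjusted p = 0.0565). Mean CHGB was 1.28 ± 1.17 CPM in KO_RES, 2.06 ± 1.96 CPM in KO and 12.5 ± 2.92 CPM in control. The part of these genes in the DIO3 and DIO3OS values was not tested.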

How the data were processed

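The deposited files hold raw counts of reads per gene, which the authors made with STAR 2.6.0b and GRCh37, per the submitters' processing notes, from a stranded mRNA kit, per the labels' protocols. Other upstream steps are not given in the sources used here. The column of sense-strand counts was used, since its total was 19.8 to 21.1 times that of the opposite strand. The 4 lines of unassigned reads, 23.2% to 31.5% of each library, were left out. Symbols came from a reference list of gene names that covered 39538 of the 57820 identifiers, and gene order, feature types and strands from GENCODE release 29, built on GRCh38. Gene coordinates in GRCh37 are therefore not given. The GRCh38 promoter windows were used only for sequence.

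The tests used edgeR 4.0.16 in R 4.3.3 (filterByExpr, TMM, quasi-likelihood tests, Benjamini-Hochberg adjustment over all genes tested, threshold 0.05). The 3-group fit covered 19200 genes (common biological coefficient of variation 36.2%), and the 5-group fit, with the lines apart, 20559 genes (25.8%). Both were tested on simulated data, where smaller changes were often missed, so a gene not called is not shown to be unchanged. Means are over 4 libraries. Intervals and the floor of 3 reads cover counting error only.

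Titles give the same line and number to a KO_RES and a KO library. These pairs deviated together from their group means over 19200 genes (r = 0.71, 0.75, 0.77 and 0.74), and partly within lines (0.28 and 0.51), so line and number were also used as a block. No library correlated with another above 0.9954 on the log scale, and none was treated as a duplicate.

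The locus genes, gene lists and tests were chosen with earlier results of these data known. Beside the locus genes, up to 4 called genes per list with the smallest adjusted p in KO against control or KO_RES against KO were eligible to be named, with HKDC1 and up to 5 genes most like each locus gene of at least 1 CPM. Other list genes were named after their values were seen. Alternatives were DESeq2 1.42.0, RLE scaling, unstranded counts, no filter, controls 1 and 2 or 3 and 4 only, groups by the genotype field, the 8 libraries whose labels agree, the mean of the lines, both blocks, and leaving out each library in turn.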

Additional observations from a re-analysis of the deposited data

Results flagged for a closer look

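DIO3 in KO_RES 2_1 stood apart from the other KO_RES libraries. At 11.1 CPM, its gap to the next library took up 0.862 of the range of the group, above the critical value of Dixon's test for 4 libraries at 95%. By chance this picks out about 1 in 20 groups of normally spread values. The ratio was taken on CPM rather than log2 CPM, and the group mixes 2 lines and 2 numbers, so that rate need not hold here. DIO3OS was also highest in KO_RES 2_1, at 2.99 CPM.

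MEG9 in KO_RES 2_2 stood apart in the same way, its gap being 1 times the range. It had 4 reads there, or 0.0591 CPM, and 0 in the other KO_RES libraries. With 0 reads in the others, that gap is 1 whatever the count.

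MEG3 in KO_RES went one way against KO in line 2 and the other way in line 1. In matched pairs its level in KO_RES was 1.36 and 1.84 times that in KO for pairs 2_1 and 2_2, and 0.204 and 0.318 times for pairs 1_1 and 1_2. The difference between the lines, line 2 minus line 1, was 2.70 on the log2 scale (SE 0.83) and did not pass the threshold (edgeR adjusted p = 1).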

How the results depend on the processing

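For KO against control, 1206 genes were called, against 2346 with DESeq2, 337 with controls 3 and 4 only, 1883 by the genotype field, 72 in the 8 libraries whose labels agree and 3312 as the mean of the lines. Leaving out each library in turn gave 509 to 1506, with counts more than 1.5 times lower without control 1 (525), control 2 (509), KO 1_1 (591), KO 1_2 (562) or KO 2_1 (651). For KO_RES against control, 1050 genes were called, against 2122, 384, 1874, 64 and 3171 under the same 5 settings, and 471 to 1138 on leaving out each library, the low counts being without control 1 (493), control 2 (473), KO_RES 1_1 (673) or KO_RES 1_2 (471). Among locus genes other than DIO3, the calls for KO against control numbered 1, and 2 with DESeq2 and with the mean of the lines, MEG3 being the addition.

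For KO_RES against KO, 0 genes were called, against 6 with DESeq2, 1 without the filter, 8 with line and number as replicate block and 3 with the line as a block. No locus gene was among the calls in any of the 20 alternatives, so the pairing changed no locus call. The sign of DIO3, at 0.10, changed in that comparison: it was -2.04 by the genotype field, -2.51 in the 8 libraries whose labels agree (edgeR adjusted p = 0.543), -0.57 with line and number as replicate block, -0.27 with the line as a block, and -1.52 to 0.47 on leaving out each library. DIO3OS, at -0.21, ran from -1.08 to 0.10 on leaving out each library, and MEG3, at -0.51, was 0.41 by the genotype field and -1.15 to -0.24 on leaving out each library. In the 8 libraries whose labels agree DIO3 had 3.55 for KO_RES against control, against 5.64 with all libraries. For KO2 against control, 2062 genes were called, against 3134 with DESeq2 and 3385 without the filter. No locus gene reversed a called direction. The causes were not tested. Locus genes with under 10 reads in most libraries (DLK1, RTL1, MEG8 and MEG9) are limited by depth.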
